A study of Oryza sativa Japonica Group with 74 samples.

Results

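The day-night change of gene expression was measured in rice plants that carry mutations in both copies of EARLY FLOWERING 3 (genotype Oself3-1 -/- Oself3-2 -/-, called elf3-1 elf3-2 here). The comparison set 3 RNA-seq libraries taken at ZT18, in the night, against 2 taken at ZT6, at midday, in each of 2 day lengths. These 10 libraries, of 74 in the series, were chosen by genotype, time and replicate number, and 10 wild-type (WT) libraries of the same times, day lengths and replicate numbers gave the size of change to compare with. ZT counts the hours from lights on. All plants were Oryza sativa Japonica Group, sampled whole at 21 days, and were grown at 28 ºC either in long days (LD, 14 h of light and 10 h of dark) or in short days (SD, 10 h of light and 14 h of dark). At ZT18 the LD plants had been in the dark for 4 h and the SD plants for 8 h. The labels do not say how many plants went into a library, or what the lesions in the ELF3 genes are. Nor do they say that replicates were separate plants or pools, so the p-values below measure the spread between libraries only, which may be technical.

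ELF3 is the scaffold of the evening complex, a repressor of transcription that also holds ELF4 and the DNA-binding protein LUX and that acts from dusk into the night. In Arabidopsis and in rice the complex represses clock genes of the day, among them GIGANTEA (GI) and several PSEUDO-RESPONSE REGULATOR (PRR) genes, and rice plants without it flower late. Light and temperature also drive daily changes of expression, so that some day-night differences may persist in plants without ELF3. The question put to these data was which of them did.

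The ZT6 libraries numbered replicate 1 went against their labels and were left out. On a scale from 0 (other genotypes) to 1 (elf3-1 elf3-2), set by 49 genes that stood at least 1.5 log2 units higher and 1 that stood as far lower in every mutant library at ZT18 than in every WT and phyB library, the ZT6 libraries labelled elf3 replicate 1 lay at 0.089 in LD and 0 in SD, while the libraries labelled phyB replicate 1 lay at 1.022 and 1.025. The libraries labelled WT replicate 1 at ZT6 lay at 1 on the matching scale of the phyB mutant. Replicates 2 and 3 went with their labels: the mutant ones at ZT6 lay between 1.016 and 1.061 on the elf3 scale and the WT ones between 0 and 0.184. With only 2 libraries left in each ZT6 group, single libraries can decide a call, and this is stated beside the results it touches. The 20 libraries held 25660600 to 42399747 counts, and Spearman's correlations of counts within a group ran from 0.984 to 0.993. Among markers of other tissues, the root gene RCc3 and the shoot meristem gene OSH1 were at 0 in every group although whole plants are named. Levels are given in CPM, counts relative to the scaled total of the library. The 6 root markers together summed to 22.9 to 31.7 CPM in WT at ZT6 and 11.5 to 18.9 at ZT18, and to 11.3 to 22.8 at ZT6 and 10.3 to 14.0 at ZT18 in the mutant. The part of differing tissue shares in the results was not tested. In whole plants, fewer cells of a type and less RNA per cell cannot be told apart.

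Both mutated genes still gave transcripts. ELF3-1 (Os06g0142600) read 59.3 and 96.1 CPM at ZT6 and 63.0, 66.6 and 82.8 CPM at ZT18 in the LD mutant, against 119 and 128, and 129, 134 and 128 CPM, in WT. Under SD it read 44.7 and 76.2 CPM at ZT6 and 100, 77.1 and 95.6 CPM at ZT18 in the mutant, against 119 and 119, and 157, 171 and 173 CPM, in WT. The mutant libraries were thus below the WT ones in each of the 4 conditions, without reaching 0. The genotype was therefore taken from the label and from the marker scale above, not from an absent transcript.

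Most day-night changes of WT had the same sign in the mutant, but fewer passed the test, and the falls of 4 clock genes and of most light-harvesting genes were smaller. Of 26528 genes tested with edgeR's quasi-likelihood test (Benjamini-Hochberg adjusted p at most 0.05), 7050 genes (26.6%) changed between ZT6 and ZT18 in the LD mutant and 10284 (38.8%) in the SD mutant. In WT 9671 (36.5%) changed in LD and 11447 (43.2%) in SD. Changes above 2-fold numbered 2385 in LD and 3387 in SD in the mutant, and 3861 and 4531 in WT. Changes above 4-fold numbered 671 and 714 in the mutant, and 1246 and 1427 in WT.

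Called changes were split about evenly between directions, but the split depended on the scaling. In the mutant 3619 genes were higher and 3431 lower at ZT18 in LD, and 5093 were higher and 5191 lower in SD. In WT 5232 were higher and 4439 lower in LD, and 5579 and 5868 in SD. Scaled by library totals alone, without trimmed mean (TMM) factors, the LD mutant gave 7261 higher and 1890 lower, WT gave 9206 and 2596 in LD and 9085 and 3473 in SD, and the SD mutant gave 5484 and 4710. That scaling moved the median log2 change of all genes from 0.045 to 0.264 in the LD mutant, from 0.035 to 0.3 in LD WT and from 0.027 to 0.293 in SD WT, and from -0.004 to 0.027 in the SD mutant. Changes are given relative to the TMM scale throughout.

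Under LD, 5330 genes passed the test in the same direction in both genotypes, which was 55.1% of the WT genes and 75.6% of the mutant genes. Without mutant ZT6 LD replicate 3 the LD mutant gave 3570 called genes, and 2820 were shared, 28.4% of the WT genes. In SD they numbered 7077, or 61.8% of the WT genes and 68.8% of the mutant genes. The sign alone was shared by 94.8% of the WT genes in LD and by 90.2% in SD. The WT and mutant comparisons share no library. Across all tested genes the log2 changes of mutant and WT had a Pearson correlation of 0.499 in LD and 0.453 in SD, given as a description over genes, which are not independent replicates.

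The size of change was also read in genes picked without the libraries it was read in. Genes that rose by 2-fold or more in WT under SD (2342 genes) had a median LD change of 1.03 in WT and of 0.76 in the mutant. Those that fell in WT under SD (2189 genes) had medians of -1.12 in WT and -0.83 in the mutant. Genes picked in LD and read in SD showed medians of 1.10 against 0.48 for the 2193 risers and of -1.48 against -0.89 for the 1668 fallers. In these 4 sets the change was smaller in the mutant for 69.7 to 79.7% of genes. All 4 sets were picked in WT, which favours a larger change in WT, and no set was picked in the mutant. They describe genes that change in WT and are no test of the size of change in general.

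**Figure D1:**
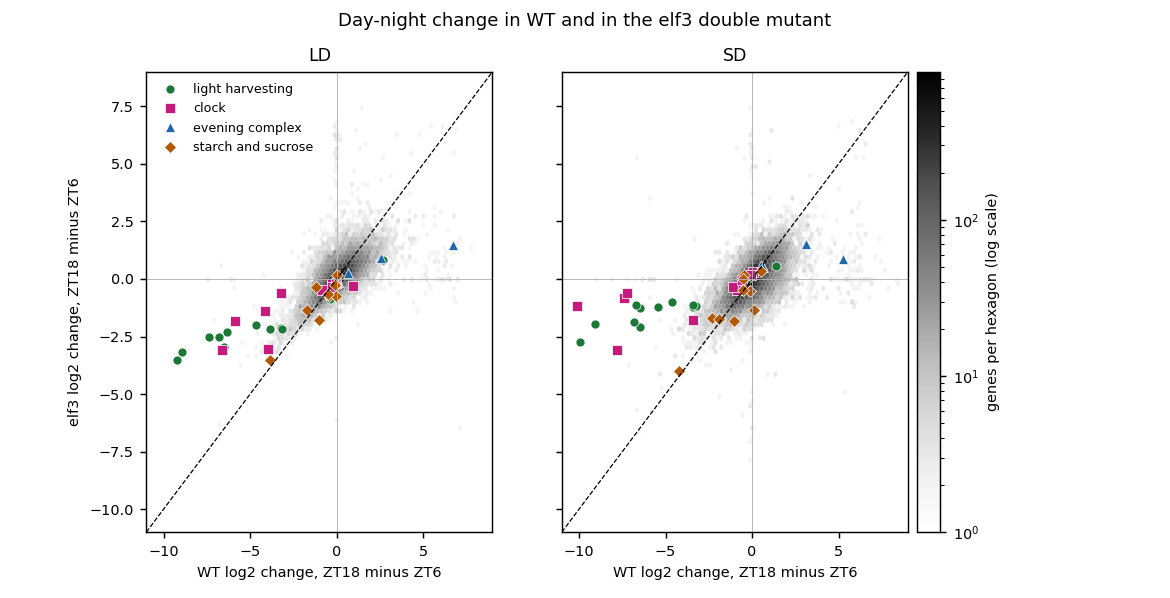
Log2 change from ZT6 to ZT18 of each tested gene in WT (x axis) and in elf3-1 elf3-2 (y axis), LD at left and SD at right, with shading for the number of genes and coloured points for listed genes. Genes on the diagonal changed alike, and the clock and light-harvesting genes with strong WT falls lie nearer to 0 on the mutant axis, as for GI with -3.20 in WT and -0.59 in the mutant in LD.

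The difference between the genotypes was tested gene by gene as an interaction within the same fit. In LD 427 genes (1.61%) had a day-night change that differed between mutant and WT, 190 with the mutant value above that of WT and 237 below it. In SD 1863 genes (7.02%) differed, 1170 above and 693 below. A fit with a term for the replicate number gave 847 genes in LD and 3399 in SD, and DESeq2 gave 1063 and 2986. With library totals alone the LD split was 197 above and 356 below, and the SD split turned to 596 above and 1775 below, with the median of all differences moved by -0.23 in SD. Adding the ZT6 libraries whose expression went against their labels left 48 genes in LD and 129 in SD. Leaving out 1 library at a time gave 118 to 1304 genes in LD and 755 to 2289 in SD. In LD the count fell by over 1.5 times without mutant ZT6 replicate 2 (118), mutant ZT18 replicate 1 (234), WT ZT6 replicate 2 (134), WT ZT6 replicate 3 (121), WT ZT18 replicate 1 (203) or WT ZT18 replicate 2 (215), and rose without mutant ZT6 replicate 3 (1304). In SD it fell as far without mutant ZT6 replicate 2 (865), mutant ZT18 replicate 2 (1223) or WT ZT6 replicate 2 (755).

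Genes were then sorted by what became of their WT change. A change was called kept where both genotypes passed the test in the same direction and the 95% interval of the difference lay within 1 log2 unit on either side of 0, lost where WT changed, the mutant did not pass and the difference did, and weaker where both passed with a smaller change in the mutant and a called difference. In LD 3533 genes were kept, 220 weaker and 162 lost. In SD 4979 were kept, 475 weaker and 722 lost. Of the kept genes 12 in LD and 131 in SD also had a called difference, smaller than that bound. For a further 5742 WT changes in LD and 5101 in SD neither a difference nor its absence within that bound could be shown. Turned changes, called in opposite directions in the genotypes and with a called difference, numbered 14 in LD and 129 in SD, and 19 and 359 genes changed in the mutant only with a called difference. Genes lower at night in WT and weaker in the mutant had median changes of -3.48 in WT and -1.65 in the mutant in LD, and of -2.23 and -1.05 in SD. These medians describe genes chosen for being weaker, and are no test. The bound for kept favours small changes. Kept genes higher at night in LD had medians of 0.72 in WT and 0.58 in the mutant, which again are no test.

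**Figure D2:**
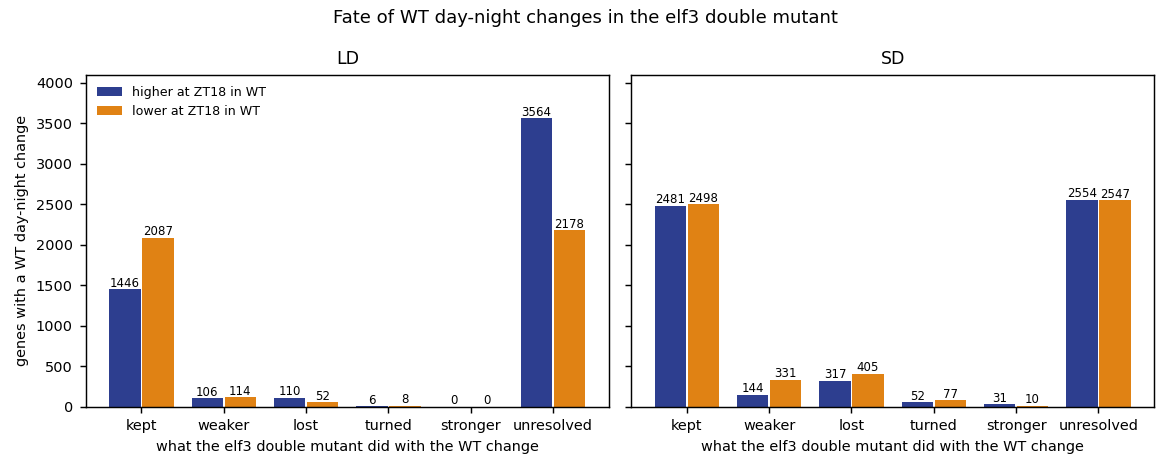
Number of genes with a WT day-night change in each class, LD at left and SD at right, with 1 bar for genes higher and 1 for genes lower at ZT18 in WT and the count printed on each bar. Kept changes (3533 in LD and 4979 in SD) outnumber lost and weaker ones, and the unresolved class holds 5742 and 5101 genes.

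Over 18 lists of genes of known role, 144 genes in all of which 138 could be tested, the mutant changed in 69 genes in LD (18 higher and 51 lower at night, beside 26.6% of all genes called, 13.6% higher and 12.9% lower) and in 72 in SD (30 and 42, beside 38.8%, of which 19.2% higher and 19.6% lower). WT changed in 76 in LD (20 and 56, beside 36.5% of all genes) and 85 in SD (22 and 63, beside 43.2%). The difference passed in 25 listed genes in LD (beside 1.61% of all genes) and in 36 in SD (beside 7.02%). In SD 31 of the 36 lay above the WT value, that is, with less of a fall at night or more of a rise. Over all genes 1170 of the 1863 called SD differences did (4.41% of the genes tested). The lists were put together for a study of the evening complex, and with earlier results of these data known. Their shares thus describe the listed genes only and are no test.

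Of 10 listed clock genes, 4 fell less at night in the mutant than in WT, the same in LD and SD: GI and the PRR genes PRR37, PRR73 and PRR95. These 4 differences passed in edgeR beside 1.61% of all genes in LD and 7.02% in SD. Of the 10, 7 fell in WT under LD (beside 16.7% of all genes lower) and 8 under SD (beside 22.1%). In the mutant 6 fell in LD (beside 12.9% of all genes lower), and in SD 3 fell (beside 19.6%) and 2 rose (beside 19.2%). Over the fits that left out 1 library, 4 to 6 fell in the LD mutant and 2 to 5 in the SD mutant, the 5 without mutant ZT18 SD replicate 2. The called differences numbered 2 to 4 in LD and 4 in SD. DESeq2 called 5 differences in LD, with LHY besides the 4, and 6 in SD, with FKF1 and ZTL2. All 4 lay above the WT value. The median change of the list was -2.03 in WT and -0.53 in the mutant in LD, and -2.26 and -0.54 in SD, while the median of all genes lay between -0.0035 and 0.0447 in these comparisons.

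GI (Os01g0182600), a clock protein that also activates Hd1, read 1520 and 1490 CPM at ZT6 and 165, 168 and 158 CPM at ZT18 in WT under LD. In the LD mutant it read 2250 and 1570 CPM at ZT6 and 1800, 1360 and 632 CPM at ZT18. The WT times stand far apart, while one mutant night library lay between the midday ones. The change was -3.20 ± 0.38 (SE) in WT and -0.59 ± 0.38 in the mutant on the log2 scale, a difference of 2.61 (adjusted p = 0.0263, edgeR). In SD WT fell from 1930 and 1730 to 12.6, 12.0 and 12.3 CPM, a ratio of means of 149, and the mutant went from 2000 and 1760 to 644, 1940 and 1120 CPM. The SD difference was 6.61 (95% interval 5.43 to 7.79, adjusted p = 2.89e-05).

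PRR73 (Os03g0284100), a pseudo-response regulator of the family that represses LHY by day, read 1140 and 1140 CPM at midday and 20, 19 and 20.3 CPM at night in LD WT, and 951 and 1060 against 417, 307 and 132 CPM in the LD mutant. Under SD it went from 1420 and 1320 to 1.04, 0.942 and 1.68 CPM in WT, and from 871 and 992 to 194, 626 and 417 CPM in the mutant. At night every mutant library was above every WT library. The mutant change was -1.82 ± 0.40 in LD and -1.17 ± 0.40 in SD, and the differences from WT were 4.03 (adjusted p = 0.00333) and 8.93 (adjusted p = 1.91e-05).

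PRR95 (Os09g0532400) had the deepest fall in the mutant among the 4. Its mutant levels were 326 and 334 CPM at ZT6 against 58.5, 36.1 and 21.7 CPM at ZT18 in LD, and 341 and 403 against 24.3, 60.5 and 44.5 CPM in SD. WT reached 4.63, 3.70 and 3.15 CPM at night in LD and 2.33, 2.31 and 2.25 CPM in SD. The mutant change was -3.10 in both day lengths (SE 0.32 in each), that of WT -6.60 and -7.81, and the difference passed in both (3.51, adjusted p = 0.00284, and 4.71, adjusted p = 0.00012).

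PRR37 (Os07g0695100), a repressor of flowering in long days, read 351 and 297 CPM at midday and 180, 133 and 62.3 CPM at night in the LD mutant, and 296 and 294 against 78.1, 264 and 163 CPM in the SD mutant. In WT it read 15.8, 19.1 and 16.7 CPM at night in LD and 1.55, 1.43 and 2.46 CPM in SD. The mutant change of -1.37 ± 0.40 passed in LD (adjusted p = 0.0179) and that of -0.81 ± 0.40 did not in SD (adjusted p = 0.121). The differences from WT were 2.74 in LD (adjusted p = 0.03) and 6.59 in SD (adjusted p = 7.14e-05).

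The SD differences of all 4 genes, and the LD differences of PRR73 and PRR95, passed in each of 20 fits that left out 1 library. The LD differences of GI and PRR37 were lost in 8 and 9 of these fits: without any one WT LD library, either mutant ZT6 library or mutant ZT18 replicate 1, and for PRR37 also mutant ZT18 replicate 2. Over all 20 fits the values ran from 2.27 to 2.93 for GI and from 2.39 to 3.07 for PRR37. The mutant's own LD fall of PRR37 was lost without mutant ZT6 replicate 2 (-1.25) or 3 (-1.49). The SD fall of PRR73 in the mutant was lost without mutant ZT6 replicate 2 (-1.28) or 3 (-1.10) or mutant ZT18 replicate 1 (-0.84) or 3 (-1.18).

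LHY had no called difference in edgeR, while DESeq2 called the LD one (0.94, adjusted p = 0.0379). LHY (Os08g0157600), the MYB factor of dawn, read 741 and 1540 CPM at ZT6 and 157, 137 and 115 CPM at ZT18 in the LD mutant, beside 1830 and 1970 against 117, 129 and 115 CPM in WT. Night levels overlapped between genotypes in LD. Its mutant change of -3.06 ± 0.20 passed (adjusted p = 2.6e-08), and the difference of 0.92 from WT did not (95% interval 0.30 to 1.53, adjusted p = 0.138). In SD the mutant read 442 and 549 CPM at ZT6 and 374, 345 and 356 CPM at ZT18, a change of -0.47 ± 0.20 (adjusted p = 0.079), against -0.88 in WT. The night fall of LHY in the mutant was thus 2.60 log2 units deeper in LD than in SD (adjusted p = 5.33e-05).

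The other 5 clock genes gave no called difference in edgeR in either day length. DESeq2 called the SD differences of FKF1 (1.59, adjusted p = 0.035) and ZTL2 (0.26, adjusted p = 0.0389). PRR59 fell in the LD mutant by 0.47 (SE 0.16, adjusted p = 0.0339) and was kept there, but this fall did not pass without mutant ZT6 replicate 2 (-0.25) or mutant ZT18 replicate 2 (-0.48) or 3 (-0.32). TOC1 was higher in the mutant than in WT in every library of each condition, with 56.8 to 115 CPM in the LD mutant and 29.1 to 37.7 CPM in LD WT, but its day-night change did not pass in the mutant (-0.21 in LD and -0.36 in SD). FKF1, a blue-light receptor F-box protein, stood at 13.3 to 34.3 CPM at ZT6 in the mutant against 3.98 to 8.23 CPM in WT, and fell at night in the SD mutant by 1.79 (SE 0.35, adjusted p = 0.000673). ZTL1 and ZTL2, relatives of FKF1, had small changes. ZTL1 rose in the SD mutant by 0.32 (adjusted p = 0.0106), a call lost without mutant ZT6 SD replicate 2. ZTL2 fell in the LD mutant by 0.33 (adjusted p = 0.00238), though not past the threshold with library totals alone, and rose in the SD mutant by 0.19 (adjusted p = 0.039), a call lost in 9 of 20 fits.

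**Figure D3:**
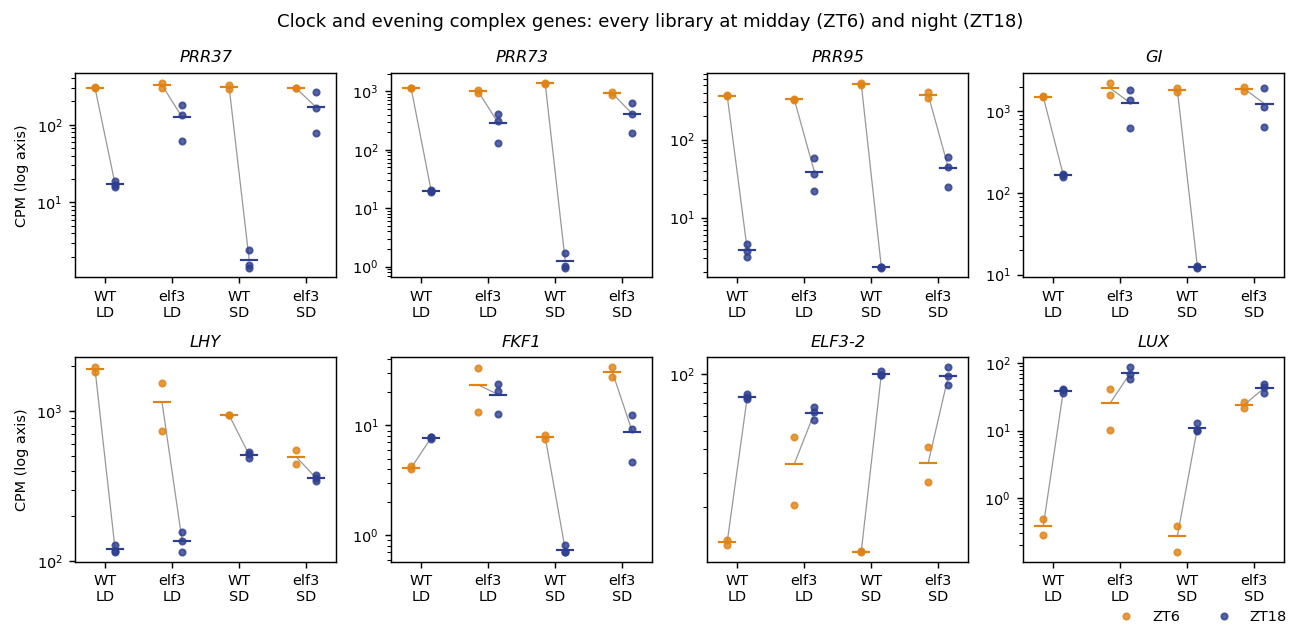
CPM on a log axis of 8 clock and evening-complex genes in each library, by genotype, time and day length, with 1 point per library, a bar at each group mean and a line joining the means. For PRR73, PRR37 and GI the WT points fall by ZT18, to between 0.942 and 168 CPM, while the mutant points at ZT18 lie between 62.3 and 1940 CPM.

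The evening genes LUX and ELF3-2 had a smaller day-night change in the mutant than in WT, and their midday levels were above those of WT. LUX (Os01g0971800), the DNA-binding subunit, read 0.478 and 0.278 CPM at ZT6 and 42.2, 36.0 and 40.2 CPM at ZT18 in LD WT. In the LD mutant it read 41.3 and 10.3 CPM at ZT6 and 89.2, 69.1 and 58.7 CPM at ZT18. The mutant thus had as much LUX at midday in 1 library as WT had at night. The change was 6.73 ± 1.05 in WT and 1.5 ± 0.36 in the mutant, a difference of -5.23 (adjusted p = 0.00434). Under SD WT rose from 0.154 and 0.382 to 10.1, 9.97 and 13.0 CPM and the mutant from 27.0 and 21.5 to 36.8, 49.5 and 44.1 CPM, with a difference of -4.41 (adjusted p = 0.0102). The SD mutant's own change of 0.85 did not pass (adjusted p = 0.0821). The difference was lost in LD without WT ZT6 replicate 3 (-4.85) and in SD without WT ZT6 replicate 2 (-3.99) or 3 (-5.29).

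ELF3-2 (Os01g0566100) rose in both genotypes, from 12.6 and 13.4 to 73.9, 78.1 and 75.2 CPM in LD WT and from 46.6 and 20.4 to 63.0, 66.7 and 56.9 CPM in the LD mutant. In SD it went from 11.5 and 11.7 to 98.2, 103 and 98.3 CPM in WT and from 41.4 and 26.9 to 87.3, 109 and 97.6 CPM in the mutant. Night levels of the SD genotypes overlapped, and midday levels did not. The differences were -1.64 in LD (adjusted p = 0.0228) and -1.58 in SD (adjusted p = 0.0105). The LD call was lost without mutant ZT6 replicate 2 (-0.93), WT ZT6 replicate 2 (-1.59) or 3 (-1.68) or WT ZT18 replicate 2 (-1.62), and the SD call without mutant ZT6 replicate 2 (-1.25) or WT ZT6 replicate 2 (-1.56). The LD rise of ELF3-2 in the mutant, 0.90, was 0.42 and not called without mutant ZT6 replicate 3. ELF4a (Os11g0621500) rose by 0.54 in the SD mutant and 0.65 in SD WT, a kept change, and ELF3-1 gave no called difference.

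Among flowering genes, the difference passed for Hd1, COL4 and, in SD, MADS56. Hd1 (Os06g0275000), the rice CONSTANS, promotes flowering in short days and represses it in long days. It rose at night from 2.12 and 2.2 to 16.5, 17 and 20.1 CPM in LD WT, and from 12.7 and 5.71 to 21.0, 19.7 and 15 CPM in the LD mutant. In SD WT it went from 0.463 and 0.763 to 13.7, 13.5 and 15.1 CPM, whereas the SD mutant read 13.0 and 9.28 CPM at midday and 14.7, 15.1 and 14.1 CPM at night. Night levels overlapped between genotypes, and every mutant midday library was above every WT one. The differences were -2.03 in LD (adjusted p = 0.0137) and -4.06 in SD (95% interval -5.23 to -2.90, adjusted p = 9.61e-05). The rise of 1.02 in the LD mutant was 0.55 and not called without mutant ZT6 replicate 3. The LD difference was lost without mutant ZT6 replicate 2 (-1.35) or WT ZT6 replicate 2 (-1.99) or 3 (-2.04), and the SD difference held in all 20 fits.

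COL4 (Os02g0610500), a CONSTANS-like repressor of flowering, turned in SD. WT fell from 167 and 138 to 41.8, 40.3 and 41.5 CPM, and the mutant rose from 70.7 and 84.7 to 120, 151 and 112 CPM. The changes were -1.89 and 0.71 (adjusted p = 0.0244 for the mutant) and the difference was 2.60 (adjusted p = 0.000262). In LD the mutant read 78.1 and 107 CPM against 101, 85.9 and 46.6 CPM, and the fall of WT by 2.09 was lost (difference 1.83, adjusted p = 0.0111). The rise in the SD mutant did not pass without mutant ZT6 replicate 2 (0.57) or 3 (0.83) or mutant ZT18 replicate 2 (0.58), and the LD difference did not pass without mutant ZT6 replicate 2 (1.63). With library totals alone 1 listed repressor had a called SD difference above WT, beside 2, COL4 and MADS56, on the TMM scale. MADS56, a repressor of flowering in long days, fell by 0.61 in SD WT and changed by -0.06 in the SD mutant (difference 0.56, adjusted p = 0.0217). That difference was lost without WT ZT18 SD replicate 1 (0.53), WT ZT6 SD replicate 2 (0.53), mutant ZT18 SD replicate 2 (0.52) or mutant ZT6 SD replicate 2 (0.48).

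Of 10 flowering activators tested, 2 fell in LD in each genotype, beside 26.6% of all genes called in the mutant and 36.5% in WT. In SD 1 rose and 3 fell in WT (beside 43.2%) and 1 rose and 2 fell in the mutant (beside 38.8%). None had a called difference in edgeR. MADS51, a short-day activator of flowering, fell in both genotypes and both day lengths, by 0.44 in LD and 0.28 in SD in the mutant. The LD fall was lost in 1 of 20 fits and the SD fall in 5, with values of -0.32 to -0.22 in SD. Ghd7, the long-day repressor, read 2.36 and 2.31 CPM at midday and 0, 0.103 and 0.048 CPM at night in LD WT, and 4.32 and 2.71 against 2.37, 1.15 and 0.405 CPM in the LD mutant. Its mutant change of -1.48 passed in LD (adjusted p = 0.0187), but not without mutant ZT6 LD replicate 2 (-1.12) or mutant ZT18 LD replicate 3 (-1.005), nor in DESeq2. The difference from WT did not pass (adjusted p = 0.107 in LD and 0.0579 in SD). The florigen gene Hd3a and its activator Ehd1 had no counts in either genotype in LD. In SD Ehd1 read 0.116 and 0.245 CPM at midday and 3.12, 2.95 and 2.87 CPM at night in WT, and 0 and 0 against 1.58, 0 and 0.983 CPM in the mutant. One mutant night library was thus at 0 like the midday ones, and the mutant's call (adjusted p = 0.0398) was lost in 9 of 20 fits and in DESeq2.

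In SD the night falls of CRY2, PIL12 and PIL13 were lost in the mutant, and that of PIL11 turned into a rise. PIL14 and CRY1b also had a called SD difference. Of 13 light-signalling genes tested, 9 changed in LD WT (beside 36.5% of all genes) and 8 in SD WT (beside 43.2%). In the mutant 5 changed in LD (beside 26.6% of all genes), 3 of them downward, and 7 in SD (beside 38.8%), 6 of them upward. The difference passed for 4 in LD (beside 1.61%) and for 6 in SD (beside 7.02%), and all 6 lay above the WT value. In LD none passed without mutant ZT6 replicate 2, either WT ZT6 library or WT ZT18 replicate 1, and in SD 4 to 6 passed over the 20 fits. The LD mutant's 5 changes were 2 without mutant ZT6 LD replicate 3. With library totals alone 4 differences passed in SD, beside 6 on the TMM scale.

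CRY2 (Os02g0625000), a blue-light receptor, lost its fall in both day lengths. It went from 90.1 and 94.0 to 32.1, 31.9 and 29.3 CPM in LD WT, and read 70.2 and 81.7 against 83.4, 77.0 and 43.7 CPM in the LD mutant. In SD WT it went from 105 and 115 to 27.7, 27.8 and 24.8 CPM, and the SD mutant read 63.1 and 74.5 against 66.6, 104 and 72.1 CPM. The mutant times overlapped in both day lengths. The differences were 1.41 in LD (adjusted p = 0.03) and 2.27 in SD (adjusted p = 0.000386). The LD call was lost in 8 of the 20 fits that left out 1 library, those without any one WT LD library, mutant ZT6 LD replicate 2 or mutant ZT18 LD replicate 1 or 2, where the values were 1.23 to 1.44.

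PIL11, PIL12 and PIL13 encode bHLH factors related to the phytochrome-interacting factors of Arabidopsis. PIL11 (Os12g0610200) fell in SD WT from 41.8 and 32.8 to 14.8, 15.8 and 14.5 CPM and rose in the SD mutant from 22.9 and 19.3 to 30, 44 and 27.8 CPM. The difference was 1.99 (adjusted p = 0.00116), with changes of -1.31 and 0.69, and the mutant's own rise (adjusted p = 0.0212) was lost without mutant ZT6 replicate 2 (0.80) or 3 (0.55) or mutant ZT18 replicate 2 (0.45). PIL12 (Os03g0639300) went from 95.2 and 81.4 to 10.8, 10.8 and 12.2 CPM in SD WT and from 52.3 and 57.9 to 33.4, 55.9 and 36.9 CPM in the SD mutant, and PIL13 (Os03g0782500) from 397 and 276 to 44.7, 40.3 and 52.2 CPM and from 46.8 and 136 to 69.1, 103 and 78.4 CPM. At midday all 3 were lower in the SD mutant than in SD WT, and at night all 3 were higher, in every library. The SD differences were 2.58 for PIL12 (adjusted p = 0.000427) and 2.74 for PIL13 (adjusted p = 0.00697), and they held in all 20 fits. In LD PIL12 differed by 1.72 (adjusted p = 0.0197, lost without WT ZT18 replicate 1 (1.71), WT ZT6 replicate 2 (1.59) or 3 (1.86) or mutant ZT6 replicate 2 (1.53)), PIL11 by 1.30 (adjusted p = 0.0459, lost in 12 of 20 fits), and the difference of 1.95 for PIL13 did not pass (adjusted p = 0.0938). PIL14 rose in the SD mutant by 0.93, beside 0.25 in WT (difference 0.68, adjusted p = 0.0327), and CRY1b, a blue-light receptor of the cryptochrome family, by 0.50, beside 0.01 (difference 0.49, adjusted p = 0.044).

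COP1 and PHYB kept their changes. COP1 (Os02g0771100), the ubiquitin ligase of light signalling, fell from 142 and 135 to 77.6, 86.2 and 69.1 CPM in LD WT and from 137 and 138 to 76.4, 76.5 and 68.4 CPM in the LD mutant. The changes were -0.83 and -0.90 with a difference of -0.06 (95% interval -0.35 to 0.23). In SD it fell by 0.81 in WT and 0.40 in the mutant (95% interval of the difference 0.11 to 0.69). PHYB (Os03g0309200), the red-light receptor, rose at night in the mutant by 0.33 in LD and 0.58 in SD (adjusted p = 0.0045 and 1.84e-05). Its LD rise was smaller than the 0.80 of WT by 0.47 (adjusted p = 0.0364), a difference that was lost in 13 of 20 fits.

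**Figure D4:**
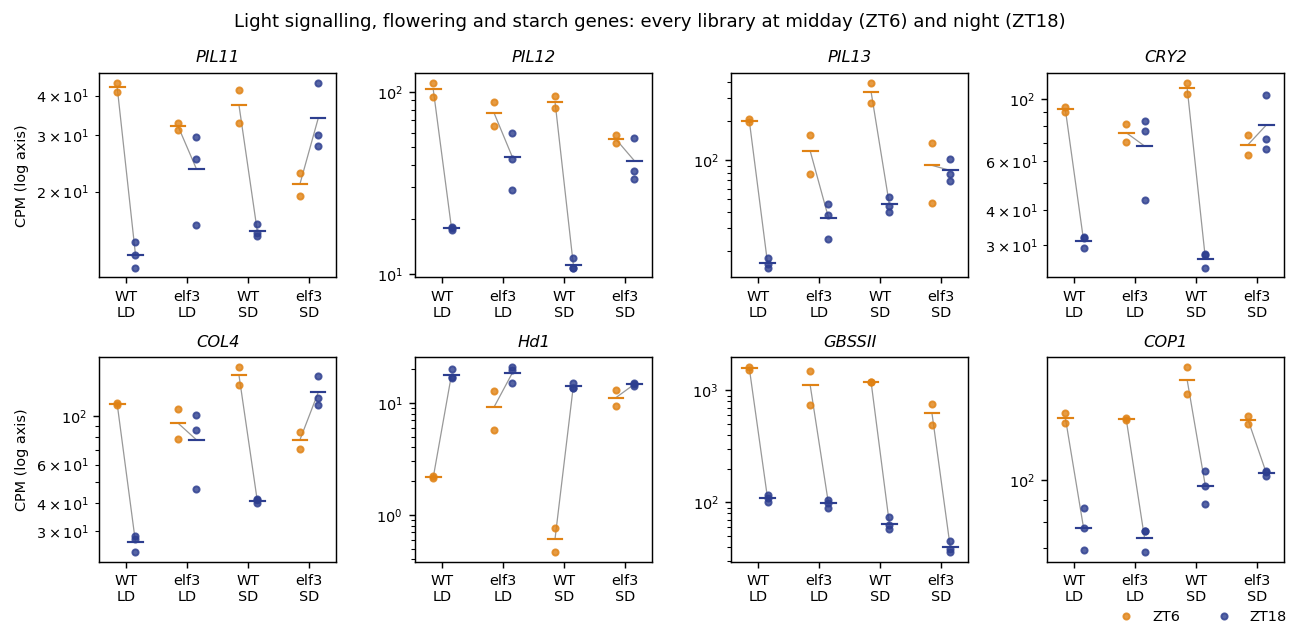
CPM on a log axis of 8 light-signalling, flowering and starch genes in each library, by genotype, time and day length, with 1 point per library, a bar at each group mean and a line joining the means. The WT points of CRY2 fall from 90.1 CPM or more at ZT6 to 32.1 CPM or less at ZT18, those of the mutant overlap between times, and the points of GBSSII and COP1 fall in both genotypes.

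Light-harvesting genes still fell at night in the mutant, but far less than in WT. These genes encode the chlorophyll-binding antenna proteins of photosystem II (LHCB, with CAB1R and CAB2R) and photosystem I (LHCA). Of 13 tested, 12 fell in LD in each genotype (beside 12.9% of all genes in the mutant and 16.7% in WT). In SD 11 fell in each (beside 19.6% and 22.1%), and LHCA6 rose. Its rise in the mutant was lost in LD without mutant ZT6 replicate 3, and in SD without mutant ZT6 replicate 2 or mutant ZT18 replicate 3. Over the fits that left out 1 library, 6 to 11 fell in the SD mutant, with the 6 without mutant ZT6 SD replicate 3, where LHCA1, LHCA3, LHCA4, LHCB5 and LHCB6 did not pass. The difference passed for 10 genes in LD (beside 1.61% of all genes) and 11 in SD (beside 7.02%), and in all of these the mutant change was the smaller in size. The median change was -6.36 in WT and -2.30 in the mutant in LD, and -5.46 and -1.20 in SD. Summed over the list, midday levels were 25600 to 27500 CPM in LD WT and 23400 to 27200 CPM in the LD mutant, and night levels 787 to 908 and 2440 to 5870 CPM. In SD the sums were 39700 to 51100 CPM at midday and 1440 to 1660 CPM at night in WT, and 20300 to 28900 and 5630 to 10700 CPM in the mutant.

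CAB1R (Os09g0346500) fell from 3790 and 3490 to 6.58, 7.17 and 4.85 CPM in LD WT, a ratio of means of 587, and from 3430 and 3470 to 427, 307 and 158 CPM in the LD mutant, a ratio of 11.6. In SD it fell from 6440 and 5070 to 5, 6.63 and 6.08 CPM in WT and from 3230 and 3960 to 272, 704 and 650 CPM in the mutant. Each mutant night library lay far above every WT night library and below every midday library. The differences were 5.67 in LD (adjusted p = 0.000549) and 7.20 in SD (adjusted p = 1.74e-05).

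LHCB2 (Os03g0592500) read 2100 and 2790 CPM at midday and 381, 283 and 146 CPM at night in the LD mutant, against 6.37, 5.41 and 5 CPM at night in WT. LHCA4 (Os08g0435900) read 2220 and 2410 against 573, 436 and 212 CPM in the LD mutant, and 22.8, 25.1 and 18.4 CPM at night in WT. The LD differences were 5.78 and 4.28 (adjusted p = 0.000549 and 0.000933). In SD LHCA4 went from 1760 and 2450 to 570, 1270 and 1020 CPM in the mutant, a fall of 1.14 beside 6.70 in WT, and this mutant fall was -0.91 and not called without mutant ZT6 SD replicate 3. The differences of CAB1R, LHCB2, LHCB5 and LHCA4 held in all 20 fits in both day lengths. The list's count with the mutant above WT ranged from 8 to 10 in LD and was 11 in every fit in SD, and was 8 and 11 with the ZT6 replicate 1 libraries added.

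LHCB4, LHCB6, LHCA5 and LHCA6 stood apart in size in LD. LHCB4 and LHCB6 fell by 3.19 and 3.17 in LD WT and by 2.13 and 2.16 in the LD mutant, differences of 1.06 and 1.01 that did not pass (adjusted p = 0.162 and 0.195). These are LD values, and in SD the difference passed for 11 of the 13 genes of the list. LHCA5 fell by 0.38 in LD WT and by 0.87 in the LD mutant. LHCA6 rose by 2.70 in LD WT and by 0.82 in the LD mutant (difference -1.88, adjusted p = 0.00161). Reads of near-identical antenna gene copies may be split among them by the counting.

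**Figure D5:**
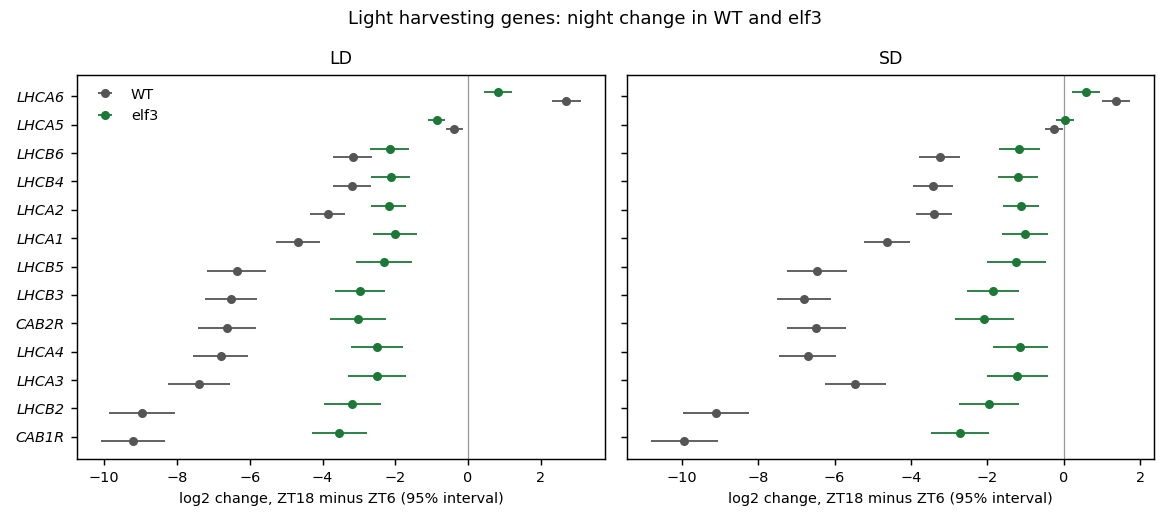
Log2 change from ZT6 to ZT18 of 13 light-harvesting genes in WT and elf3-1 elf3-2, LD and SD, with 95% intervals of the fitted change. The WT points of CAB1R, LHCB2, LHCA3 and LHCA4 lie between -9.93 and -5.46 and the mutant points between -3.54 and -1.14.

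The mutant night libraries spread widely for these genes. Over the 16 clock and light-harvesting genes with a called difference, the highest replicate was a median 2.69 times the lowest at ZT18 in the LD mutant and 2.38 times in the SD mutant, against 1.22 and 1.21 times in WT. LD replicate 3 was the lowest in 15 of the 16 genes and SD replicate 1 in 15 of 16. LD replicate 1 was the highest in 14 of the 16 genes and SD replicate 2 in 13. The same libraries were thus low or high in most of these genes, so the genes are not separate observations. Without LD replicate 3 the mutant change of CAB1R was -3.23, and without SD replicate 1 it was -2.41.

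More chlorophyll synthesis genes fell than rose at night, and CHLH and CAO1 fell less in the SD mutant than in SD WT. Of 12 tested, 6 fell and 2 rose in the LD mutant (beside 26.6% of all genes called) and 7 fell and 1 rose in the SD mutant (beside 38.8%). In WT 7 fell and 3 rose in LD (beside 36.5% of all genes called), and 8 fell and 2 rose in SD (beside 43.2%). Over the fits that left out 1 library 5 to 6 fell in the LD mutant and 3 to 9 in the SD mutant, the 3 without mutant ZT6 SD replicate 3. No rise passed in the LD mutant without mutant ZT6 LD replicate 3. CHLD, another subunit of magnesium chelatase, rose in both genotypes, by 0.65 in LD and 0.63 in SD in the mutant and by 1.36 and 0.74 in WT. CHLH (Os03g0323200), a subunit of magnesium chelatase, fell from 2980 and 2660 to 281, 330 and 315 CPM in SD WT, and from 774 and 1580 to 538, 684 and 677 CPM in the SD mutant. CAO1 (Os10g0567400), which makes chlorophyll b, fell from 1270 and 959 to 161, 186 and 158 CPM in SD WT and from 404 and 595 to 203, 249 and 223 CPM in the SD mutant. For both, every SD mutant library was below every WT library at midday and above every WT library at night. The SD differences were 2.30 for CHLH (adjusted p = 0.00165) and 1.58 for CAO1 (adjusted p = 0.00112). In LD neither difference passed (1.00 and 0.73), and the mutant fell by 2.2 and 2.54. The mutant's own SD fall of CHLH, -0.89, was -0.31 without mutant ZT6 SD replicate 3 and then did not pass.

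CRD1, PORB and HEMA1, other enzymes of chlorophyll synthesis, were kept in LD. They fell in the LD mutant by 2.17, 1.78 and 1.43, beside 1.91, 1.56 and 1.36 in WT. In SD they fell by 1.08, 1.43 and 0.72 in the mutant, with no called difference from WT, which does not show that the SD falls were alike. The SD fall of HEMA1 in the mutant was lost without mutant ZT6 replicate 3 (-0.26) or mutant ZT18 replicate 2 (-0.66). CHLG, chlorophyll synthase, rose at night in LD by 1.49 in WT and 0.52 in the mutant (difference -0.96, adjusted p = 0.0337), a difference that was lost in 8 of 20 fits.

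Most carbon fixation genes fell in the LD mutant, and GAPA and RCA had a called difference from WT in SD, 2 of 10 beside 7.02% of all genes. In LD 7 of 10 fell in the mutant (beside 12.9% of all genes lower) and none had a called difference in edgeR or DESeq2, with 1 at an unadjusted p under 0.05 in edgeR (median change -0.82, and -0.64 in WT). In SD 6 fell in WT (beside 22.1% of all genes lower), and the median changes were 0.05 in the mutant and -0.67 in WT. In the SD mutant 3 fell and 1 rose, 4 of 10 beside 38.8% of all genes called. Only 1 fell there without mutant ZT6 SD replicate 3 or mutant ZT18 SD replicate 2. GAPA, a subunit of the chloroplast glyceraldehyde phosphate dehydrogenase, fell by 1.18 in the LD mutant and 1.32 in LD WT, and by 0.48 and 1.66 in SD, where the difference of 1.18 passed (adjusted p = 0.0116). Its own SD fall in the mutant was lost in 9 of 20 fits. That SD difference was lost without WT ZT6 SD replicate 2 (1.00) or mutant ZT6 SD replicate 2 (0.86). RCA, rubisco activase, fell by 1.37 in the LD mutant and changed by 0.22 in the SD mutant (adjusted p = 0.383), beside a fall of 0.72 in SD WT, and its SD difference of 0.95 (adjusted p = 0.0439) was lost in 12 of 20 fits. CATC, the photorespiratory catalase, was kept in both day lengths with falls of 1.19 and 0.85 in the mutant and 0.93 and 1.02 in WT.

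The starch gene GBSSII fell steeply at night in both genotypes. Of 10 starch and sucrose genes 3 had a called difference in SD (beside 7.02% of all genes) and 1 in LD (beside 1.61%). GBSSII (Os07g0412100), the granule-bound starch synthase of leaves, fell from 749 and 1480 to 89.6, 98.9 and 105 CPM in the LD mutant, beside 1630 and 1540 to 109, 116 and 101 CPM in WT. In SD it fell from 494 and 753 to 45.1, 35.8 and 38.1 CPM in the mutant and from 1180 and 1200 to 58.0, 73.6 and 62.4 CPM in WT. The mutant fell 11.3-fold in LD and 15.7-fold in SD by the ratio of means, and WT 14.5-fold and 18.4-fold. On the log2 scale the changes were -3.51 ± 0.22 and -3.98 ± 0.22 in the mutant and -3.87 and -4.21 in WT. The difference was 0.36 in LD (95% interval -0.28 to 1.01, just past the bound for kept) and 0.23 in SD (-0.42 to 0.89, kept). Both mutant falls held in all 20 fits.

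BEIIa, a starch branching enzyme, fell by 1.76 in LD and 1.74 in SD in the mutant and by 1.04 and 1.92 in WT. SSI, a soluble starch synthase, fell by 1.34 and 1.69 in the mutant and by 1.73 and 2.33 in WT. The LD fall of SSI rested on mutant ZT6 replicate 3 at 156 CPM beside 57.8 CPM in replicate 2, and without replicate 3 it was -0.45 and did not pass. Subunits of ADP-glucose pyrophosphorylase, the enzyme that makes the precursor of starch, went other ways. AGPS1 (Os09g0298200) fell in the SD mutant from 40.0 and 53.6 to 17.9, 17.5 and 19.9 CPM, while SD WT read 18.2 and 25.7 against 23.7, 25.4 and 23.6 CPM. The groups of the SD mutant did not overlap and those of WT did. The difference was -1.48 (adjusted p = 0.0124), and was -1.25 and not called without WT ZT6 SD replicate 2. AGPL1 (Os03g0735000) fell by 0.73 in the LD mutant and by 0.04 in LD WT (difference -0.69, adjusted p = 0.0225), and in SD changed by 0.01 in the mutant and fell by 0.51 in WT (difference 0.52, adjusted p = 0.038). These were lost in 6 and 7 of 20 fits, and the SD one also with library totals alone. AGPS2, another subunit, had the remaining called SD difference, with the mutant above WT. It was lost in 6 of 20 fits, where the values over all 20 ran from 0.44 to 0.90, and also with library totals alone.

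Of 14 gibberellin genes 3 had a called difference in SD (beside 7.02% of all genes) and none in LD (beside 1.61%). In LD 3 had an unadjusted p under 0.05 in edgeR, and none was called by DESeq2. The difference from WT did not itself differ between day lengths by the test for any of the 14. KAO (Os06g0110000), an oxidase of gibberellin synthesis, fell in SD WT from 9.79 and 10.4 to 6.15, 6.69 and 6.03 CPM and rose in the SD mutant from 3.11 and 5.70 to 8.95, 11.8 and 10.7 CPM. The changes were -0.69 and 1.24 and the difference 1.93 (adjusted p = 0.00192). KO2 (Os06g0570100), the oxidase of the step before it, rose in the SD mutant from 14.7 and 20.8 to 34.7, 33.1 and 33.8 CPM, and SD WT read 31.6 and 27.2 against 23.8, 26.0 and 27.1 CPM. Its difference was 1.12 (adjusted p = 0.00585). Both differences held in all 20 fits. EUI1, which inactivates gibberellins, rose by 1.06 in SD WT and changed by -0.42 in the SD mutant (difference -1.48, adjusted p = 0.0398, lost in 13 of 20 fits). GID1, the gibberellin receptor, rose at night by 0.49 in LD and 0.58 in SD in the mutant and was kept in both.

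In the defence list 5 of 7 genes rose at night in the LD mutant (beside 13.6% of all genes) and 1 in the SD mutant (beside 19.2%). In WT 1 rose in LD (beside 19.7% of all genes) and 2 in SD (beside 21%). No gene had a called difference in edgeR (in LD 4 at an unadjusted p under 0.05, and 2 called by DESeq2), but 5 had one in LD without mutant ZT18 LD replicate 2. The 5 genes that rose in the LD mutant were PR1a and PR1b, pathogenesis-related proteins, CPS4 and MAS, enzymes of momalactone-type phytoalexin synthesis, and NPR1, the coactivator of the salicylic acid response. CPS4 read 10.0 and 2.49 CPM at midday and 240, 9.02 and 77.3 CPM at night in the LD mutant, and MAS 1.31 and 0.519 against 43.7, 1.64 and 17 CPM. Without mutant ZT6 LD replicate 3 the rises of PR1a (2.2), PR1b (1.73), CPS4 (3.44) and MAS (3.98) did not pass, which left NPR1 alone. PR1b was also lost without mutant ZT18 LD replicate 1 (1.43). Night replicate 2 of the LD mutant was low for both, and its CPS4 value overlapped with midday. The differences from LD WT were 4.20 for CPS4 (95% interval 1.39 to 7.01, adjusted p = 0.145) and 3.04 for MAS (-0.47 to 6.54, adjusted p = 0.425). PR1a, PR1b, MAS and CPS4 were named after their values were seen. NPR1 was kept, with rises of 0.95 and 0.80 in the mutant and 0.89 and 0.83 in WT.

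Expansin genes of the cell wall list rose at night in the mutant, 2 of 6 in LD (beside 13.6% of all genes higher) and 4 in SD (beside 19.2%), without a called difference in edgeR (in LD 2 at an unadjusted p under 0.05, and 1 called by DESeq2). In LD none rose without mutant ZT6 LD replicate 2 or 3 or mutant ZT18 LD replicate 2, 1 rose without mutant ZT18 LD replicate 3, and 4 rose without either mutant ZT6 SD library. EXPB4 rose by 1.15 in LD and 1.85 in SD, beside 3.06 and 2.55 in WT. EXPA2 rose by 0.94 and 0.92, beside 1.36 and 1.17. The LD rise of EXPB4 in the mutant was lost in 3 of 20 fits, and the rises of EXPA2 in 4 in LD and 2 in SD. Of nitrogen genes, GS1;1, the cytosolic glutamine synthetase, fell by 0.56 in LD and 1.24 in SD in the mutant and by 1.28 and 1.51 in WT, with a called LD difference of 0.73 (adjusted p = 0.0459) that was lost in 14 of 20 fits. The lists of reference genes, dividing-cell genes, root genes, heat shock genes, flowering activators and genes of cold or drought had no called difference in edgeR in LD or SD, with at most 2 genes of a list at an unadjusted p under 0.05, and DESeq2 called 1 reference gene in SD.

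The day-night change within the mutant differed between day lengths for 4973 genes (18.7%), with 3675 genes called in the same direction in both day lengths, which was 52.1% of the LD calls and 35.7% of the SD calls. In WT 6148 were shared, 63.6% of the LD calls and 53.7% of the SD calls. Of the listed genes 34 changed with day length in the mutant, 24 of them with a lower value in LD. Over all genes 2510 of the 4973 did (9.46% of the genes tested). NiR, nitrite reductase, and GS2, the plastid glutamine synthetase, fell in the LD mutant (-1.58 and -0.47) and rose in the SD mutant (0.95 and 0.38). NiR did not pass in LD without mutant ZT6 replicate 3 (-0.77), or in SD without mutant ZT6 replicate 2 (0.50) or mutant ZT18 replicate 1 (0.86), and GS2 was lost in 2 fits in LD and 5 in SD. Whether the effect of the mutation itself differed between day lengths, a comparison added after the values were seen, passed for 8 genes (0.0302%), 4 in each direction (0.0151% each), and for none of the 138 listed genes, with 3094 genes at an unadjusted p under 0.05. DESeq2 gave 406 genes there. The genes with a called difference from WT in both day lengths numbered 237 in the same direction, which was 55.5% of the LD list and 12.7% of the SD list, and 3 in opposite directions.

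Kept changes were shared between day lengths in 1540 genes, 694 higher and 846 lower at night, which was 43.6% of the LD kept genes and 30.9% of the SD ones. A further 105 genes, EF1a among them, were kept in both day lengths but with opposite directions in LD and SD. Of the listed genes MADS51, PHYB, COP1, DVR (a chlorophyll synthesis enzyme), CATC, SUT2 (a sucrose transporter), GID1, NPR1 and EF1a were kept in both. EF1a, a translation elongation factor used as a reference gene, rose by 0.48 in the LD mutant and fell by 0.52 in the SD mutant, and its LD rise was 0.31 and not called without mutant ZT6 LD replicate 3. Its SD fall in WT of 0.33 was 0.005 in limma on TPM. Genes outside the lists were ranked by the mean of LD and SD, with a group mean of at least 3 CPM required. The largest rise kept in both was that of Os01g0881800, with mutant changes of 1.88 in LD and 2.68 in SD. The deepest kept fall was that of Os04g0690800, with -3.10 and -4.15. Os04g0690800 went from 191 to 22.3 CPM in the LD mutant and from 172 to 16.6 CPM in LD WT, as group means. Differences from WT were ranked among genes called in the same direction in both day lengths. The largest were those of Os01g0281100, at 7.44 in LD and 8.67 in SD, and of Os04g0675400, at -6.23 and -6.16. Os01g0281100 read 41.2 CPM at midday and 7.98 CPM at night in the LD mutant and 62.5 and 0.0604 CPM in LD WT, and Os04g0675400 read 60.6 and 421 CPM and 1.05 and 542 CPM.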

How the data were processed

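RNA-seq of whole 21-day rice plants was analysed from read counts per gene that the authors deposited. Per the submitters' processing notes HISAT2, StringTie and the IRGSP-1.0 genome were used, and versions and the counting step are not given in the sources used here. Per the labels' protocols RNA was made into stranded libraries. The authors also deposited TPM values, which were used in an alternative only. 1 column matched no sample and was not used.

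The 20 libraries were fitted together with 8 group means in edgeR 4.0.16 (R 4.3.3; quasi-likelihood test, robust, TMM factors 0.816 to 1.159). Of 37849 genes, 11321 were left out by edgeR's filter on low counts. Residual degrees of freedom were 12. P-values were adjusted by the Benjamini-Hochberg method over the 26528 genes tested, with a threshold of 0.05. Every adjusted p is from this fit, except those given as from DESeq2. Changes are log2 of ZT18 over ZT6, differences are mutant minus WT, SE is that of the fit, and CPM is the count relative to the TMM-scaled library total, by edgeR's function of that name. The scripts were tested on simulated data.

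Symbols were paired with IDs by hand. RefSeq held 84 of 144 symbols, each on the chromosome of its ID, and 60 were not found. The members and lists were chosen with earlier results of these data known. Genes were named by a written rule: the clock and evening-complex genes, then per list up to 4 genes by size of a called difference and up to 3 by size of a change in the mutant, with those named outside it given for contrast. Alternatives were other normalizations, filters, libraries, DESeq2 1.42.0, limma 3.58.1 on TPM, a replicate block and leaving out each library.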

Additional observations from a re-analysis of the deposited data

Results flagged for a closer look

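The day-night change of the mutant differed between LD and SD for 4973 genes (edgeR's test of the difference). Among listed genes that the text describes, the change in LD minus that in SD was -2.595 for LHY (adjusted p = 5.33e-05), 1.505 for FKF1, -0.478 for ZTL1, -0.522 for ZTL2, -0.491 for COP1 and -1.136 for PIL11 on the log2 scale. It was -1.306 for CHLH, -1.091 for CRD1, -1.391 for CAO1 and -1.594 for RCA, all toward a deeper night fall in LD. Subunits of ADP-glucose pyrophosphorylase stood at 1.076 (AGPS1), -0.936 (AGPS2) and -0.745 (AGPL1). Nitrogen genes stood at -2.523 (NiR, adjusted p = 0.00138), -0.849 (GS2) and 0.689 (GS1;1), and the elongation factor EF1a at 1.0 (adjusted p = 0.000453). ZT18 came after 4 h of dark in LD and 8 h in SD, so day length and time in the dark cannot be told apart.

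The difference between mutant and WT itself differed between SD and LD for 8 genes. None of the listed genes above passed that test.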

How the results depend on the processing

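Leaving out 1 library at a time, the number of called genes ranged from 3570 to 7385 for the mutant in LD, 7496 to 10546 in SD, 6523 to 9921 for WT in LD and 8747 to 11716 in SD. It ranged from 118 to 1304 for the difference in LD, 755 to 2289 in SD, 2802 to 5199 for LD against SD in the mutant and 0 to 242 for the day-length effect on the difference. Shared genes ranged from 2820 to 5573 in LD and 5848 to 7282 in SD. The lowest counts for the LD mutant (3570) and for LD against SD (2802) came without mutant ZT6 LD replicate 3 and mutant ZT6 SD replicate 2. With all libraries as labelled, counts were 4584 (mutant LD), 39 and 54 (difference, LD and SD), 1490 (LD against SD), 0 (day-length effect on the difference) and 2657 (shared LD). With ZT6 replicate 1 added they were 6378 (WT LD), 48, 129, 1815, 0 and 2907. With all libraries but the 17 doubted ones, the difference passed in 1374 and 3604 genes and its day-length effect in 548. DESeq2 gave 1063, 2986 and 406, and limma on TPM gave 24 (pseudocount 1) and 25 (0.1) for the last. Requiring 2-fold left 2385, 3387, 3861 and 4531 for mutant and WT in LD and SD, 946 for the SD difference, 2041 for LD against SD, and 1616 and 2023 shared. The cause of these shifts was not tested beyond fewer libraries or a stricter rule.

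The replicate block gave 847 genes for the difference in LD, 3399 in SD and 20 for its day-length effect. Same-numbered libraries deviated together (correlation over 0.1) in 57 of 62 pairs (median 0.327), against 14 of 112 pairs with different numbers (median -0.154). What same-numbered libraries share was not tested. The fit reported in the text has no term for the replicate number, and gave the lower counts of differences (427 in LD and 1863 in SD).

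Of 363 results on single genes, 146 kept their direction and side of the threshold in all 32 settings. Signs reversed for PHYB in the LD mutant (0 as labelled, -0.018 with replicate 1 added), PIL15 in LD WT (-2.512 and -2.483), ZTL2 in LD WT (0.015 with library totals, 0.039 and 0.04 in limma), GID2 in LD WT (0.03, 0.049 and 0.05), Ehd4 in SD WT (0.057, 0.106 and 0.108) and EF1a in SD WT (0.005 in limma at both pseudocounts). The search of promoters for motifs was not run. Low genes such as Ghd7 may be limited by depth, which was not tested.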
